A study of Mus musculus with 19 samples.

Results

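The interaction of diabetes and rosiglitazone asks, transcript by transcript, whether the drug went with a different change in diabetic mice than in control mice. It was computed as the rosiglitazone minus vehicle difference in diabetic mice minus the same difference in control mice, over all 19 arrays of the series and 13460 of its 18193 named genes. RNA came from the sciatic nerve of mice of the inbred strain DBA/2J, with 1 mouse per array. The groups were 5 diabetic mice given streptozotocin and rosiglitazone (arrays DR716 to DR720), 5 diabetic mice given streptozotocin and vehicle (DV706 to DV710), 5 control mice given rosiglitazone (CR711 to CR715), and 4 control mice given vehicle (CV702 to CV705), which are labelled as untreated in the treatment field and as vehicle in the titles. The authors left out 1 further control array at quality control. Drug dose, duration, age and sex are not given in the sources used here, and no label says what control mice received in place of streptozotocin.

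Streptozotocin destroys the insulin-producing beta cells of the pancreas and so models type 1 diabetes. Rosiglitazone activates PPAR gamma, a nuclear receptor that switches on genes of fat uptake and storage in adipocytes and restrains inflammatory genes in macrophages. A sciatic nerve holds axons, Schwann cells, fibroblasts, vessels and resident macrophages, with fat around it, while the cell bodies of its sensory neurons lie in ganglia outside the trunk.

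The arrays carried the transcripts of nerve, with log2 intensities of 13.83 to 14.44 for Mbp (myelin basic protein) and 13.82 to 14.34 for Pmp22, a protein of the myelin membrane. They differed in RNA integrity and in other tissue. Degraded RNA raises the signal of 3' over 5' control probe sets, and for Gapdh that log2 difference was 1.75 in DR716, 3.71 in DV706 and 4.38 in DV707, against 1.00 to 1.37 on the other 16 arrays. For beta-actin it was 1.699 in DR716, 2.731 in DV706 and 3.005 in DV707. It was also raised in CR711 (1.306) and DV708 (1.295), against 0.4736 to 0.9523 on the remaining arrays. A level for each gene list was taken per array as the mean log2 intensity of its tested genes after centring each gene. For 20 transcripts of sensory neuron cell bodies this level lay between -3.27 and -2.41 in DR716, DV706, DV707, DV709 and CR715, against 0.01 to 1.83 on the other 14 arrays. For 13 adipocyte transcripts it ran from -3.58 in DV709 to 2.66 in CR715. The 5 arrays low in sensory neuron transcripts are called the neuron-poor arrays. Among such transcripts, Isl1 had a median log2 intensity of 10.46 over all arrays and Scn10a one of 8.762. As sensory cell bodies lie outside the trunk, the name marks a difference in tissue content. It does not mean that the other 14 arrays are the purer nerve, and why those carried these transcripts was not tested. As 3 of the neuron-poor arrays are diabetic vehicle ones, results are also given without DV706 and DV707, and without all 5. Without all 5, the diabetic vehicle group rests on DV708 and DV710 alone.

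No gene passed the threshold for the interaction. At an adjusted p under 0.05 (limma, Benjamini-Hochberg over all genes tested), 0 of 13460 genes were called, and the smallest adjusted p was 0.748. At an unadjusted p under 0.05 there were 642 genes, 4.77% of those tested, 253 with a positive interaction (1.88%) and 389 with a negative one (2.89%). With the arrays centred on their medians the split was 105 positive and 484 negative, and with quantile normalization 214 and 452. The median standard error (SE) of an interaction was 0.288 log2 units, so the median gene needed an interaction of 0.608 to reach an unadjusted p of 0.05. An interaction of moderate size was therefore not detectable for most genes with these arrays. The adjusted threshold asks for more, so a large interaction could also miss it. Ccl7, at 1.95 with an unadjusted p of 0.000151 in limma, did not pass.

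Each of the 4 differences that make up the interaction also had 0 genes past the adjusted threshold in limma. At an unadjusted p under 0.05 there were 1305 genes for rosiglitazone in diabetic mice (9.70%), 381 for rosiglitazone in control mice (2.83%), 173 for diabetes under rosiglitazone (1.29%) and 2439 for diabetes under vehicle (18.1%). The median absolute difference was 0.201 for the drug in diabetic mice and 0.13 for the drug in control mice. It was 0.0942 for diabetes under rosiglitazone and 0.251 for diabetes under vehicle, and the difference under rosiglitazone was the smaller for 76.0% of genes. That share was 64.0% without DV706 and DV707 and 63.2% without the 5 neuron-poor arrays. Without DV706 and DV707 the counts at an unadjusted p under 0.05 were 258 genes for rosiglitazone in diabetic mice and 606 for diabetes under vehicle. These differences share groups in pairs, so their sizes are not independent of one another.

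**Figure D1:**
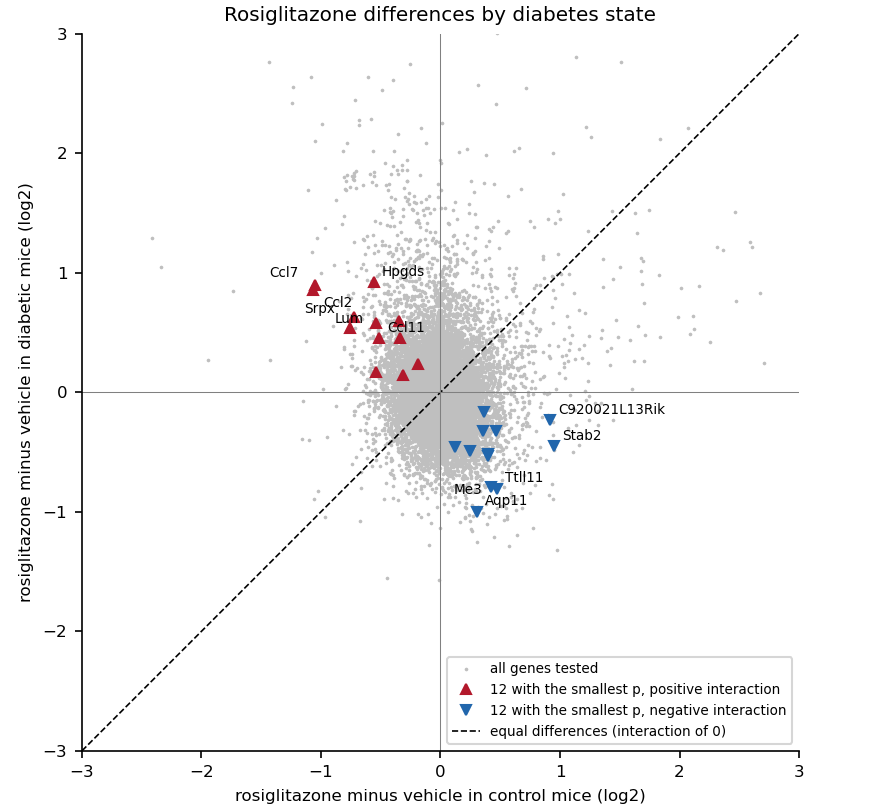
Each grey point is 1 of the 13460 genes tested, placed by the rosiglitazone minus vehicle log2 difference in diabetic mice (vertical axis) and in control mice (horizontal axis), with 5 genes outside the axes. Red and blue triangles are the 12 genes with the smallest p among positive and among negative interactions, and all 24 lie where the drug differences have opposite signs; they were picked for a difference between them.

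Among the 12 positive interactions with the smallest p were 3 chemokines and a matrix proteoglycan. Ccl7 and Ccl2 encode chemokines that draw monocytes into tissue, Ccl11 encodes the eosinophil chemokine eotaxin, and Lum encodes lumican, a proteoglycan of collagen matrix. In each of these genes the control vehicle mice had the highest mean and the diabetic vehicle mice the lowest, and both rosiglitazone groups lay between them. The genes were picked for their interaction p, so the pattern within them is a description.

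Ccl7 was at 9.44, 9.65, 10.15, 9.98 and 9.36 log2 intensity in diabetic rosiglitazone mice and at 8.01, 8.57, 8.77, 9.07 and 9.68 in diabetic vehicle mice. It was at 8.79, 8.89, 8.96, 9.62 and 9.91 in control rosiglitazone mice and at 10.06, 10.35, 10.23 and 10.50 in control vehicle mice. All 4 control vehicle arrays were above every control rosiglitazone array and every diabetic vehicle array, whereas the diabetic groups overlapped only through DV710. The drug difference was 0.90 (SE 0.28) in diabetic mice and -1.05 (SE 0.29) in control mice. The interaction was 1.95 (SE 0.40, 95% interval 1.10 to 2.79), which means that the drug to vehicle ratio in diabetic mice was 3.85 times that in control mice. Its unadjusted p of 0.000151 was the smallest of all genes, and its adjusted p in limma was 0.748.

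Ccl2 had 9.83, 10.47, 10.62, 11.04 and 9.72 in diabetic rosiglitazone mice and 9.61, 8.36, 9.50, 9.44 and 10.53 in diabetic vehicle mice. It had 9.45, 9.68, 9.51, 10.28 and 10.59 in control rosiglitazone mice and 10.89, 10.77, 11.11 and 11.11 in control vehicle mice. The control groups did not overlap, and the diabetic groups did. The interaction was 1.92 (SE 0.49, 95% interval 0.88 to 2.96), from 0.85 in diabetic and -1.07 in control mice.

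Ccl11, brighter than either, averaged 12.65 ± 0.10 in diabetic rosiglitazone mice and 12.20 ± 0.46 in diabetic vehicle mice (SD, n = 5 each). It averaged 12.33 ± 0.29 in control rosiglitazone mice (n = 5) and 12.85 ± 0.23 in control vehicle mice (n = 4). DV709 and DV710, at 12.69 each, lay among the diabetic rosiglitazone arrays, which were at 12.58, 12.75, 12.69, 12.72 and 12.51. The other diabetic vehicle arrays were at 11.82, 11.74 and 12.03, below all of those. The interaction was 0.97 (SE 0.28).

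Lum was at 12.16, 12.38, 12.41, 12.25 and 12.22 in diabetic rosiglitazone mice and at 11.43, 11.27, 11.51, 12.24 and 12.06 in diabetic vehicle mice. It was at 11.68, 12.02, 12.26, 11.98 and 11.96 in control rosiglitazone mice and at 12.49, 12.52, 12.57 and 12.48 in control vehicle mice. The control vehicle arrays lay above all 15 others within a span of less than 0.1. The interaction was 1.12 (SE 0.23, 95% interval 0.63 to 1.61), from 0.58 (SE 0.16) in diabetic and -0.54 (SE 0.17) in control mice, with an unadjusted p of 0.000164.

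These 4 interactions were not carried by any single array. Over all fits with 1 array left out, the interaction ran from 1.74 to 2.16 for Ccl7, from 1.64 to 2.18 for Ccl2, from 0.85 to 1.09 for Ccl11 and from 1.01 to 1.25 for Lum. Without DV706 and DV707 it was 1.59 for Ccl7, 1.58 for Ccl2, 0.69 for Ccl11 and 0.88 for Lum. Without the 5 neuron-poor arrays it was 1.78 for Ccl7, 1.69 for Ccl2, 0.90 for Ccl11 and 1.06 for Lum. Of the control rosiglitazone arrays, CR711 was the lowest for all 4 genes, and without it the interaction of Ccl11 was 0.85. In a fit that weights arrays by their agreement with the model, the drug difference in control mice passed the threshold for Ccl7 (-1.15, adjusted p = 0.0365 in limma), Ccl2 (-1.19, adjusted p = 0.0378 in limma) and Lum (-0.48, adjusted p = 0.0433 in limma), while the interaction did not, with a smallest adjusted p of 0.161. In that fit 20 genes passed for this drug difference. The share of all genes at an unadjusted p under 0.05 for it was 15.4%, against 2.83% without weights. The 4 genes were picked for an interaction that contains this difference, so these calls are not separate support.

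**Figure D2:**
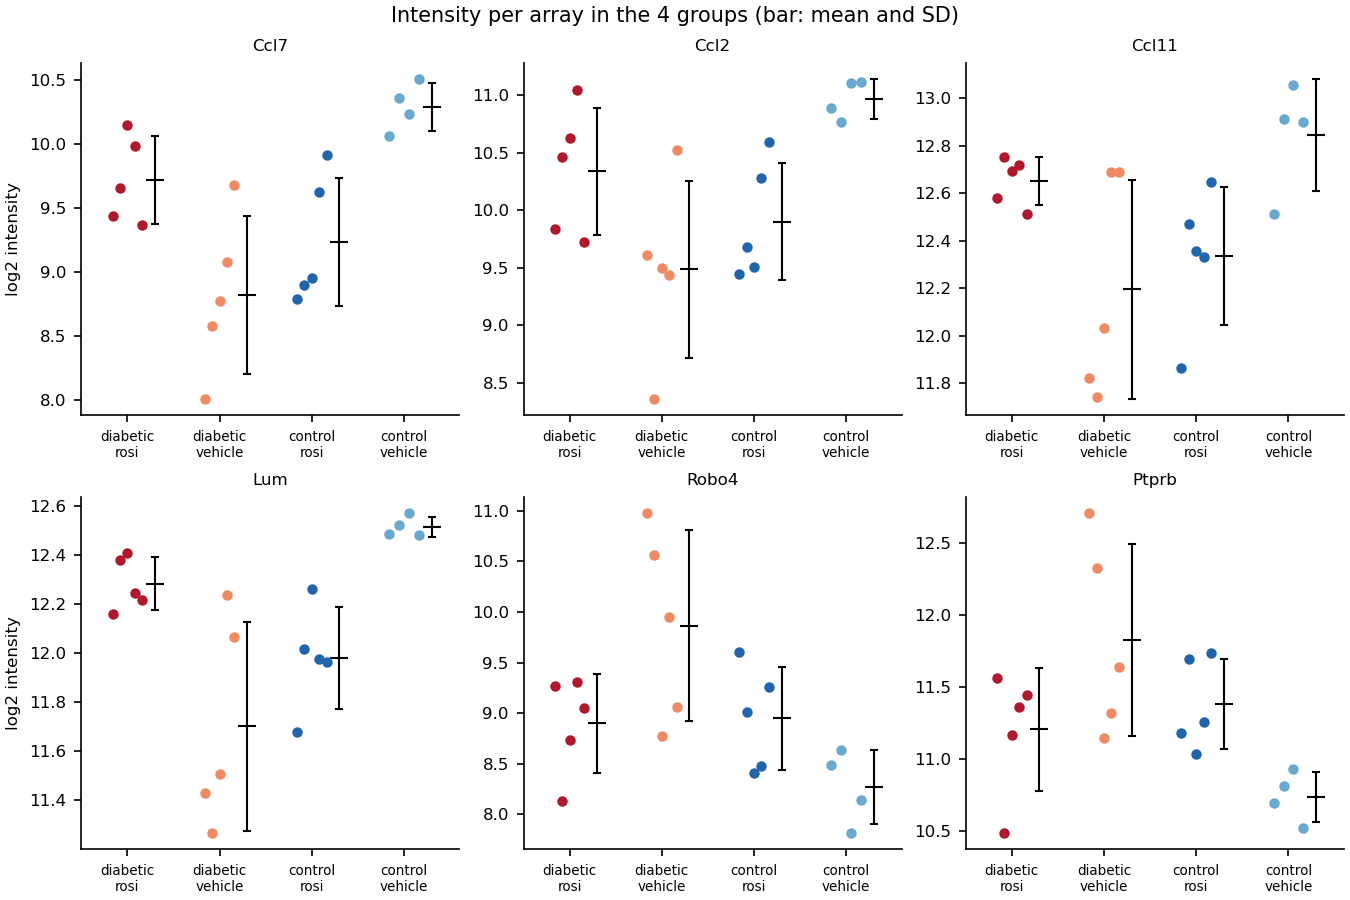
Log2 intensity of Ccl7, Ccl2, Ccl11, Lum, Robo4 and Ptprb (vertical axes) in the diabetic rosiglitazone, diabetic vehicle, control rosiglitazone and control vehicle groups, 1 point per array, with the mean and SD beside each group. For the chemokines and Lum the control vehicle mean is the highest and the diabetic vehicle mean the lowest; for Robo4 and Ptprb this order is turned round.

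Ccl2, Ccl7 and Ccl11 stand next to one another on chromosome 11, followed by Ccl12, Ccl8 and Ccl1 in the RefSeq annotation of GRCm38.p6. The last 3 were named after their values were seen. Ccl12, another monocyte chemokine, was at 10.26, 11.12, 10.72, 11.49 and 10.67 in diabetic rosiglitazone mice and at 9.17, 10.89, 10.47, 8.94 and 10.56 in diabetic vehicle mice. It was at 10.25, 10.59, 10.93, 10.95 and 10.06 in control rosiglitazone mice and at 11.23, 10.48, 11.27 and 10.99 in control vehicle mice. All groups overlapped, with DV706 and DV709 lowest, for an interaction of 1.29 (SE 0.51, unadjusted p = 0.0216 in limma). Ccl8 had an interaction of 1.04 (SE 1.39), which was 1.72 without CV702 and 0.17 without DV709, where it was at 7.97 against 11.32 to 13.70 in the other diabetic vehicle arrays. Ccl1, close to the filter at a mean of 5.66, had 0.19 (SE 0.39), which was 0.0024 without CV704, 0.39 without DV708 and -0.18 without the 5 neuron-poor arrays. For Ccl8 and Ccl1 the interaction was smaller than its standard error.

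The chemokine Ccl3 (MIP-1 alpha), also added after its values were seen, was at 7.23, 7.32, 7.59, 7.03 and 7.11 in diabetic rosiglitazone mice and at 5.53, 6.03, 6.39, 6.19 and 7.62 in diabetic vehicle mice. It was at 7.04, 6.67, 6.81, 7.26 and 5.90 in control rosiglitazone mice and at 7.16, 6.65, 7.51 and 7.53 in control vehicle mice. Apart from DV710, the diabetic groups did not overlap. Its interaction was 1.38 (SE 0.46), and that of Ccl4 (MIP-1 beta) was 1.04 (SE 0.34). Ccl4 was dim and close to the filter, with a mean of 5.53 in diabetic vehicle mice and 6.10 to 6.38 in the other groups. Without the 5 neuron-poor arrays the interaction was 0.53 for Ccl3 and 0.78 for Ccl4.

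Across the list of chemokines and cytokines, 18 of the 24 tested members had a positive interaction and 6 a negative one, with a median of 0.44, against 6493 of 13460 genes positive and a median of -0.02 over all genes tested. At an unadjusted p under 0.05 there were 5 positive members and 0 negative ones in limma, 20.8% against the 4.77% of all genes. These 5 were Ccl7, Ccl2, Ccl11, Ccl3 and Ccl4, already named above for their p or after their values were seen. The share therefore repeats that choice and is not separate support. No member of the list passed the adjusted threshold. The median was 0.15 without DV709 and 0.74 without DV706 and DV707. The list level overlapped between all groups, from -0.32 to 0.55 in diabetic rosiglitazone mice, -1.18 to 0.59 in diabetic vehicle mice, -0.56 to 0.23 in control rosiglitazone mice and -0.20 to 0.49 in control vehicle mice.

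Macrophage transcripts, too, had positive interactions. Of 18 tested members 16 had a positive interaction, with a median of 0.57, and 5 (27.8%) reached an unadjusted p under 0.05, all of them positive, beside 1.88% of all genes with a positive interaction at that p. Trem2, a lipid-sensing receptor of macrophages, was at 8.51, 8.75, 8.92, 9.64 and 8.93 in diabetic rosiglitazone mice and at 6.26, 7.10, 8.45, 8.59 and 8.60 in diabetic vehicle mice. It was at 8.67, 8.35, 8.4, 8.75 and 8.31 in control rosiglitazone mice and at 8.52, 8.63, 8.90 and 8.64 in control vehicle mice. Its low arrays were DV706 and DV707, and its interaction of 1.32 (SE 0.53) was 0.58 without them. The sign held in 1 of 2 probe sets. Fcgr1, a high-affinity antibody receptor, had 1.10 (SE 0.46), which was 1.11 without those arrays and 0.68 without the 5 neuron-poor ones. Lyz2 (lysozyme), the brightest of the 3, averaged 13.60 ± 0.16 in diabetic rosiglitazone mice and 13.39 ± 0.33 in diabetic vehicle mice (SD, n = 5 each), and 13.44 ± 0.07 in control rosiglitazone mice (n = 5) and 13.70 ± 0.07 in control vehicle mice (n = 4), an interaction of 0.45 (SE 0.19). The median of the list was 0.39 without DV709, 0.61 without DV706 and DV707, when 18 of 18 members were positive, and 0.33 without the 5 neuron-poor arrays. Since whole nerve was measured, fewer cells of a type and less RNA per cell cannot be told apart.

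Of the complement genes, 2 of which are also on the macrophage list, 9 of 13 tested had a positive interaction, with a median of 0.22 that was 0.04 without DR716. C3ar1, the receptor for the C3a fragment, had 1.21 (SE 0.47), and C5ar1, the receptor for C5a, had 1.15 (SE 0.55). C1qa, a chain of the recognition molecule C1q, had 1.38 (SE 0.62). Its diabetic vehicle arrays were at 8.64, 8.92, 10.88, 10.22 and 11.60, the lowest 2 being DV706 and DV707, and without them the interaction was 0.54. Without the 5 neuron-poor arrays it was 0.62 for C3ar1, 0.67 for C5ar1 and 0.26 for C1qa.

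Antigen-presenting and neutrophil transcripts, lists described after their medians were seen, also had positive medians. MHC class II transcripts were positive for 8 of 9 members, with a median of 0.37, which was 0.24 without CV705 and 0.05 without the 5 neuron-poor arrays. H2-Aa, an alpha chain of the class II molecule, was at 12.998, 13.11, 13.10, 13.64 and 13.14 in diabetic rosiglitazone mice and at 11.43, 12.07, 12.48, 11.99 and 13.59 in diabetic vehicle mice. It was at 12.29, 12.75, 12.87, 13.10 and 12.81 in control rosiglitazone mice and at 13.05, 13.09, 12.94 and 13.21 in control vehicle mice. Its interaction was 1.19 (SE 0.41, unadjusted p = 0.00992 in limma), but 2 of its 4 probe sets had the other sign, and it was 0.53 without the 5 neuron-poor arrays. H2-Eb1, a class II beta chain, had 0.57 (SE 0.29) and Cd74, the invariant chain, 0.37 (SE 0.21).

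All 8 tested neutrophil transcripts had a positive interaction, with a median of 1.96, and 0 of the 8 reached an unadjusted p under 0.05 in limma. S100a9, a calcium-binding protein abundant in neutrophils, was at 11.19, 12.49, 9.88, 13.75 and 11.22 in diabetic rosiglitazone mice and at 9.65, 14.12, 7.29, 7.30 and 13.70 in diabetic vehicle mice. It was at 9.02, 9.44, 10.74, 8.91 and 11.53 in control rosiglitazone mice and at 12.56, 13.99, 9.74 and 13.06 in control vehicle mice. The diabetic vehicle group held both the lowest and the highest array, and the interaction of 3.70 had an SE of 1.85. S100a8, its partner protein, had 3.38 (SE 1.99) and Camp, the antimicrobial cathelicidin, 2.58 (SE 2.42), with Camp at 1.07 without CV703. The median of the list was 0.73 without CV703 and 2.90 without DV710.

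Fibroblast transcripts had a positive interaction for 15 of 16 tested members, with a median of 0.30 (0.19 without DV709), and 4 of the 16 (25.0%) reached an unadjusted p under 0.05, all positive, beside the 1.88% of all genes. The list shares 2 genes with the proteoglycan list and 3 with the collagen list. The 4 were Lum, which was picked for its interaction p, Dcn, Col3a1 and Col1a1, and all 4 are among the shared genes. No member outside the matrix lists reached that p. Dcn (decorin), a proteoglycan that binds collagen fibrils, averaged 14.37 in diabetic rosiglitazone and 14.24 in diabetic vehicle mice, and 14.27 in control rosiglitazone and 14.42 in control vehicle mice, an interaction of 0.28 (SE 0.12). Vcan (versican), a large proteoglycan of loose matrix, had 0.77 (SE 0.28), and 22 of 28 proteoglycans and other matrix genes were positive, with a median of 0.21. Collagens depended on the arrays, with 16 of 27 positive and a median of 0.04, but the median was -0.09 without DR716, 0.20 with 23 positive without DV706 and DV707, and 0.29 with 24 positive without the 5 neuron-poor arrays. Col3a1 and Col1a1, the main fibrillar collagens, had 0.32 (SE 0.14) and 0.31 (SE 0.14), and Col12a1, a fibril-associated collagen, had 1.09 (SE 0.44) with the sign shared by 2 of 4 probe sets. Matrix proteases and their inhibitors had a median of 0.18 with 11 of 14 positive, among them Mmp19 at 0.84 (SE 0.32), the membrane protease Mmp14 at 0.97 (SE 0.45) and the inhibitor Timp1 at 0.86 (SE 0.36). That median was 0.08 without DV708 and 0.40 without DV706 and DV707.

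The other positive genes of the naming rule were of varied function. Srpx, a secreted matrix protein, had 1.35 (SE 0.38), with diabetic vehicle arrays at 8.39, 9.19, 8.64, 8.85 and 10.06 against 10.12, 9.97, 10.24 and 10.26 in control vehicle mice. Hpgds, the prostaglandin D synthase of haematopoietic cells, had 1.48 (SE 0.46), and its 5.19 in DV706 lay below the 6.58 to 7.73 of the other diabetic vehicle arrays; without DV706 the interaction was 1.12, and without DV707 as well it was 0.97. Sp3, a transcription factor, had 1.29 (SE 0.41), Rad51c, a recombination protein close to the filter, 0.71 (SE 0.18), and Glipr2 0.79 (SE 0.25). Pias3, a SUMO ligase that inhibits STAT3, had 0.46 (SE 0.14). Slf2, a DNA repair factor, had 0.95 (SE 0.28) and Fkbp7, a chaperone of the endoplasmic reticulum, 0.43 (SE 0.13), each with the sign shared by only 1 of its 2 probe sets. In all 12 genes the control vehicle mean was the highest of the 4, and in 10 the diabetic vehicle mean was the lowest.

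The negative interactions with the smallest p had the opposite order, with control vehicle mice lowest in 10 of 12 genes and diabetic vehicle mice highest in 8. Aqp11, a water channel of the endoplasmic reticulum, was at 5.69, 6.08, 6.16, 6.30 and 6.58 in diabetic rosiglitazone mice and at 7.96, 7.17, 6.97, 7.26 and 6.43 in diabetic vehicle mice. It was at 7.04, 6.64, 6.83, 6.42 and 6.43 in control rosiglitazone mice and at 6.36, 6.80, 6.04 and 6.28 in control vehicle mice. The diabetic groups overlapped only through DV710, and the control groups overlapped as well. The drug difference was -0.998 (SE 0.24) in diabetic mice and 0.31 (SE 0.25) in control mice, an interaction of -1.30 (SE 0.34) with the same sign in all 3 probe sets. Me3, a mitochondrial malic enzyme that makes NADPH, had -1.22 (SE 0.35), from 6.42 in diabetic rosiglitazone and 7.21 in diabetic vehicle mice and 6.62 in control rosiglitazone and 6.19 in control vehicle mice. Mmab, an enzyme of vitamin B12 activation, had -0.79 (SE 0.23), with 4 of 4 probe sets of that sign.

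Stab2 encodes stabilin 2, a scavenger receptor known from sinusoidal endothelium that clears hyaluronan. It was at 10.81, 10.70, 10.17, 9.90 and 11.19 in diabetic rosiglitazone mice and at 11.57, 10.62, 10.90, 11.12 and 10.82 in diabetic vehicle mice. It was at 11.09, 11.10, 11.35, 11.32 and 10.68 in control rosiglitazone mice and at 9.10, 10.40, 10.67 and 10.46 in control vehicle mice. Here the larger part of the interaction of -1.40 (SE 0.42) lay in the control mice, with a drug difference of 0.95 (SE 0.31) against -0.45 (SE 0.29) in diabetic mice, and the control groups met between CR715 and CV704. The lowest array was CV702, and without it the interaction was -1.05.

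The remaining genes on the negative side were C920021L13Rik at -1.15 (SE 0.28), a transcript with the sign shared by 1 of 2 probe sets, and Ttll11, a tubulin polyglutamylase, at -1.28 (SE 0.37). Grtp1, a Rab GTPase-activating protein by its domain, had -0.93 (SE 0.27) and Mfsd9, of the transporter superfamily, -0.92 (SE 0.27). Sapcd2, Zfp750, Kpna7 and Alppl2 had interactions between -0.74 and -0.53 at group means below 7.2. Zfp750, at 5.12 to 6.30 over all arrays, and Alppl2, at 5.52 to 6.16, lay close to the filter. All control vehicle arrays were below it for Zfp750, at 5.12 to 5.38. Every one of the 24 genes of the naming rule kept the sign of its interaction in each alternative that tested it as a gene. The fit of every probe set on its own is not among these. As the genes were picked for a small p and the alternatives reuse most of the same arrays, a kept sign was likely from the outset.

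Endothelial transcripts formed the list with the most negative median among those described. Of 19 tested members 17 had a negative interaction and 2 a positive one, with a median of -0.68, and 6 of the 19 (31.6%) reached an unadjusted p under 0.05, all negative, beside the 2.89% of all genes with a negative interaction at that p. The list level averaged -0.04 ± 0.36 in diabetic rosiglitazone mice and 0.38 ± 0.55 in diabetic vehicle mice (SD, n = 5 each), and -0.04 ± 0.30 in control rosiglitazone mice (n = 5) and -0.38 ± 0.17 in control vehicle mice (n = 4). Ptprb, the vascular endothelial phosphatase, was at 11.56, 10.49, 11.17, 11.36 and 11.44 in diabetic rosiglitazone mice and at 12.71, 12.32, 11.15, 11.32 and 11.64 in diabetic vehicle mice. It was at 11.18, 11.69, 11.04, 11.26 and 11.73 in control rosiglitazone mice and at 10.69, 10.81, 10.93 and 10.52 in control vehicle mice. The 2 highest arrays were DV706 and DV707, and the control groups did not overlap.

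The interaction of Ptprb was -1.26 (SE 0.39), and -0.81 without DV706 and DV707. Robo4, a guidance receptor of endothelium, had -1.65 (SE 0.55), and Egfl7, a secreted endothelial factor, -0.75 (SE 0.28). Robo4 was at 10.98 and 10.56 in DV706 and DV707, against 8.77 to 9.96 in the other diabetic vehicle arrays. Pericyte and smooth muscle transcripts lay the same way, with 9 of 12 members negative and a median of -0.56, among them Notch3, a receptor of mural cells, at -0.88 (SE 0.39), the potassium channel gene Kcnj8 at -0.79 (SE 0.46) and Rgs5, a pericyte marker, at -0.40 (SE 0.25) with the sign shared by 1 of 4 probe sets. Of the 12 pericyte and smooth muscle members, 1 (8.33%) reached an unadjusted p under 0.05 in limma, with a negative interaction, beside the 2.89% of all genes. Without DV706 and DV707 the medians were -0.45 for endothelium and -0.12 for pericytes, and the pericyte median was -0.37 without CV704. Without the 5 neuron-poor arrays the endothelial median was -0.11, with 9 of 19 members positive, and the pericyte median was -0.19. The interaction was then -0.83 for Ptprb, -0.72 for Robo4 and -0.31 for Egfl7.

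**Figure D3:**
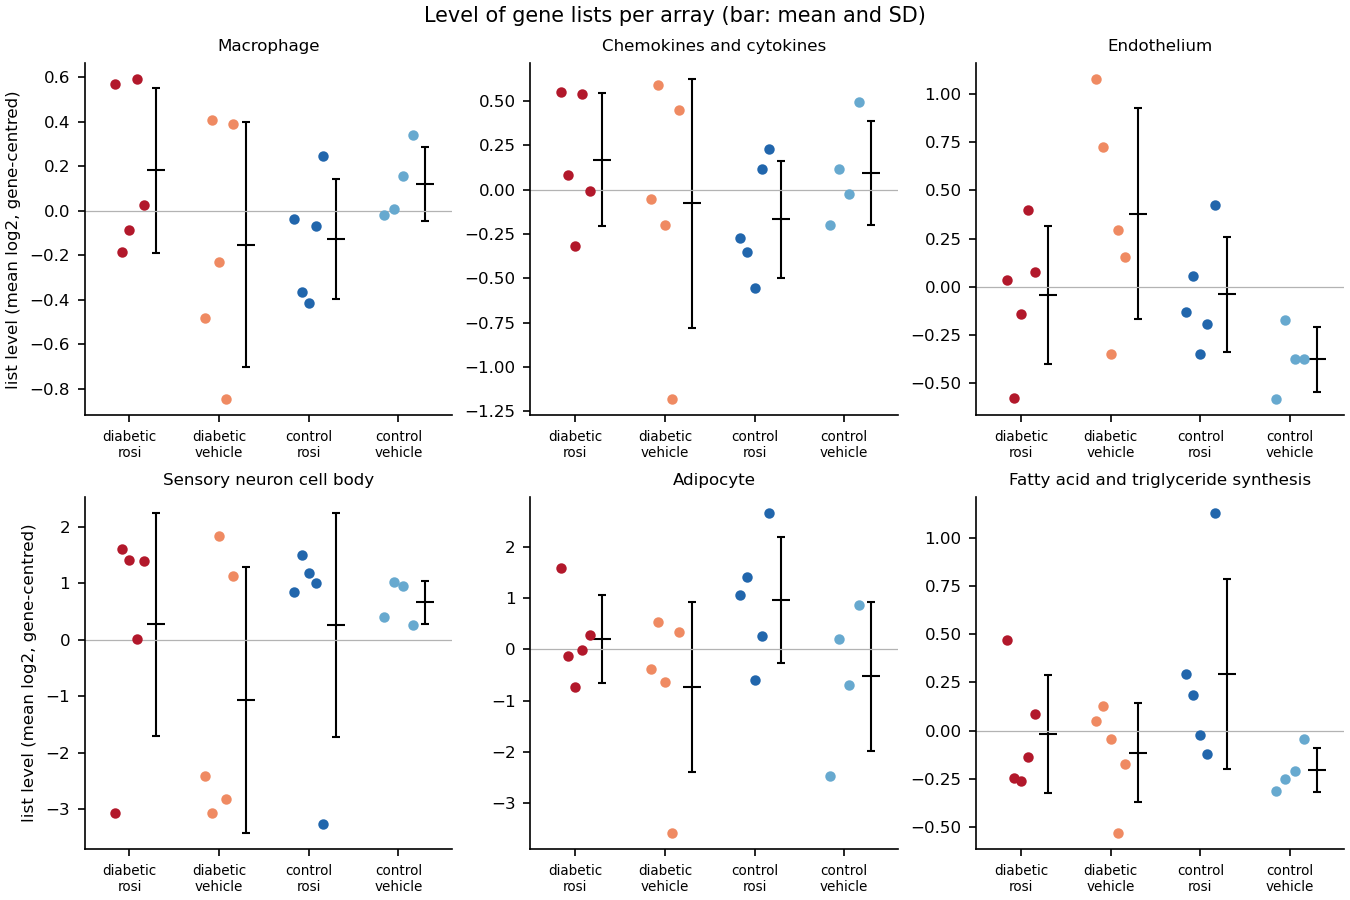
Level of 6 gene lists (vertical axes, mean log2 intensity of the tested members after centring each gene) on each array of the diabetic rosiglitazone, diabetic vehicle, control rosiglitazone and control vehicle groups, with the mean and SD beside each group. Endothelial levels are highest in DV706 and DV707, 5 arrays lie at -2.41 or below for sensory neuron transcripts, and macrophage and chemokine levels overlap between all groups.

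PPAR targets and fat-storage genes, the known response to rosiglitazone in adipocytes, had negative medians, and their median drug differences were positive in both states and larger in control mice. Among 25 PPAR targets 18 had a negative interaction, with a median of -0.49, and the median drug difference was 0.39 in diabetic mice and 0.68 in control mice. Of these 25, 2 (8%) reached an unadjusted p under 0.05 in limma, all negative, beside the 2.89% of all genes. Among 19 genes of fatty acid and triglyceride synthesis 16 were negative, with a median of -0.43. Their median drug difference was 0.04 in diabetic mice, where 11 of 19 were positive, and 0.48 in control mice, where 17 were. At an unadjusted p under 0.05 there were 3 of the 19 (15.8%), all negative, beside the 2.89% of all genes. Me1, the cytosolic malic enzyme that supplies NADPH, was at 10.68, 10.37, 10.31, 10.40 and 10.61 in diabetic rosiglitazone mice and at 11.64, 10.86, 10.70, 10.94 and 10.37 in diabetic vehicle mice. It was at 10.95, 10.78, 10.71, 10.55 and 10.92 in control rosiglitazone mice and at 10.68, 10.65, 10.41 and 10.41 in control vehicle mice, an interaction of -0.67 (SE 0.25). Gpam, which starts triglyceride assembly, had -0.63 (SE 0.24), and Acaca, the acetyl-CoA carboxylase that commits carbon to fatty acids, had -0.85 (SE 0.35), Acaca with the sign shared by 1 of 2 probe sets. Of the PPAR targets, Mgll, a monoglyceride lipase, had -0.73 (SE 0.30) and Cpt1a, the carnitine transferase that admits fatty acids to mitochondria, -0.69 (SE 0.30). Unlike the list medians, the means of Me1, Gpam, Acaca, Mgll and Cpt1a were lower in diabetic rosiglitazone than in diabetic vehicle mice. In control mice the mean was higher with the drug for all of these but Cpt1a.

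The array CR715 had the highest adipocyte level, 2.66, and DV709 the lowest, and each moved these lists. Without CR715 the median was -0.18 for PPAR targets, -0.12 for fatty acid and triglyceride synthesis and -0.11 for the 13 adipocyte genes, against -0.55 for the adipocyte genes with all arrays. Without DV709 the median was -0.74 for PPAR targets and -1.27 for the adipocyte genes. The PPAR and adipocyte lists share 6 genes. Of the 13 adipocyte genes, 0 reached an unadjusted interaction p under 0.05 in limma. Adipocyte levels ran from -0.73 to 1.59 in diabetic rosiglitazone mice, -3.58 to 0.54 in diabetic vehicle mice, -0.60 to 2.66 in control rosiglitazone mice and -2.47 to 0.87 in control vehicle mice. With adipocyte, muscle and neuron levels as covariates the median was -0.06 for PPAR targets, -0.14 for synthesis genes and 0.14 for adipocyte genes, and with the Gapdh difference added it was -0.16 for PPAR targets, -0.36 for synthesis genes and 0.12 for adipocyte genes. Without DV706 and DV707 it was -0.25 for PPAR targets, -0.32 for synthesis genes and 0.007 for adipocyte genes. Without the 5 neuron-poor arrays it was -0.35 for PPAR targets, -0.31 with 0 of 19 positive for synthesis genes and -1.05 for adipocyte genes. The part of fat carried with the nerve in these medians was not tested apart from that.

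Single PPAR-related genes carried wide errors. Pparg, the drug's own receptor, was at 10.63, 7.70, 6.88, 7.80 and 7.69 in diabetic rosiglitazone mice and at 8.50, 10.26, 7.66, 6.86 and 8.21 in diabetic vehicle mice. It was at 9.03, 8.98, 6.99, 7.90 and 11.48 in control rosiglitazone mice and at 6.30, 8.32, 6.96 and 8.64 in control vehicle mice, an interaction of -1.47 (SE 1.22). Its 2 highest arrays, CR715 and DR716, are also the arrays with the highest adipocyte levels. DV707, the next for Pparg at 10.26, had an adipocyte level of 0.54, below the 1.42 of CR712, where Pparg was at 8.98. Cidec, a lipid droplet protein, had drug differences of 2.21 (SE 1.18) in diabetic mice and 2.07 (SE 1.25) in control mice, an interaction of 0.14 (95% interval -3.47 to 3.75). Fabp4, the adipocyte fatty acid carrier, had drug differences of 0.96 in diabetic and 0.87 in control mice and an interaction of 0.09 (SE 0.99), and the fatty acid transporter Cd36 had 0.07 (SE 0.92). Both signs depend on the probe set and the scaling, as 2 of 4 probe sets of Fabp4 and 1 of 3 of Cd36 shared them and centring the arrays turned both. Pdk4, a kinase that restrains glucose oxidation, had -0.49 (SE 0.25), and Angptl4, an inhibitor of lipoprotein lipase, -0.97 (SE 0.58). The means of Pdk4 and Angptl4 were lower with the drug in diabetic mice and higher with it in control mice. Of the adipocyte members, Plin4, a lipid droplet coat protein, had -1.47 (SE 1.24), the hormone-sensitive lipase Lipe -1.15 (SE 0.98) and Gpd1, which makes glycerol phosphate, -0.55 (SE 0.55). Without CR715 the interaction was -0.82 for Pparg, -0.64 for Angptl4, -0.56 for Lipe and -0.11 for Gpd1. Without CV702 it was -0.72 for Plin4 and 1.22 for Cidec, and without DV709 it was -1.01 for Cidec and -0.74 for Fabp4.

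Stress-response lists lay slightly positive. Chaperones and genes of the unfolded protein response had 26 of 30 members positive, with a median of 0.18, which was 0.09 without CV705 and 0.08 without DV706 and DV707. Hsp90b1, the chaperone GRP94, had 0.66 (SE 0.28) and Hspe1, a mitochondrial chaperonin, 0.40 (SE 0.20). Pdia4, a disulfide isomerase, had 1.68 (SE 0.76) with the sign shared by 1 of 2 probe sets. Antioxidant genes had 25 of 35 positive, with a median of 0.13, which was 0.23 without DV710 and 0.06 without DV706 and DV707. Gpx7, a peroxidase of the endoplasmic reticulum, was at 11.54, 11.48, 11.66, 11.64 and 11.61 in diabetic rosiglitazone mice and at 10.81, 10.93, 11.11, 11.36 and 11.46 in diabetic vehicle mice. It was at 11.71, 11.50, 11.33, 11.54 and 11.79 in control rosiglitazone mice and at 11.56, 11.55, 11.86 and 11.71 in control vehicle mice, an interaction of 0.55 (SE 0.18), and of 0.37 without DV706 and DV707, its 2 lowest arrays. Every diabetic rosiglitazone array was above every diabetic vehicle array. Nfe2l2, the regulator NRF2, had 0.55 (SE 0.25), Gpx8 0.40 (SE 0.19), and Hmox1, haem oxygenase, 0.52 (SE 0.77), which was 0.19 without CR711 and 1.07 without DR720.

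Sensory neuron transcripts had the second largest median of the lists described, after neutrophil ones. All 20 tested members were positive, with a median of 1.68, and 0 of the 20 reached an unadjusted p under 0.05 in limma. Calcb, a sensory neuropeptide, was at 4.87, 12.20, 12.08, 10.47 and 12.10 in diabetic rosiglitazone mice and at 4.14, 3.70, 12.30, 6.82 and 11.57 in diabetic vehicle mice. It was at 11.13, 12.03, 11.51, 11.20 and 5.33 in control rosiglitazone mice and at 10.47, 11.39, 11.38 and 10.15 in control vehicle mice. The same 5 arrays were low for the sodium channel Scn11a and for Uchl1, a ubiquitin hydrolase of neurons. Without them 0 of 20 members were positive and the median was -0.83, whereas it was 0.81 without CR715 and 2.56 without DR716. With all arrays the interactions were 3.25 (SE 2.62) for Calcb, 2.87 (SE 2.30) for Scn11a and 1.22 (SE 0.99) for Uchl1, and without CR715 they were 2.02, 1.66 and 0.71 in the same order. The part of these cell bodies in the other lists was not tested beyond the fits without the 5 arrays and with the neuron level as a covariate.

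**Figure D4:**
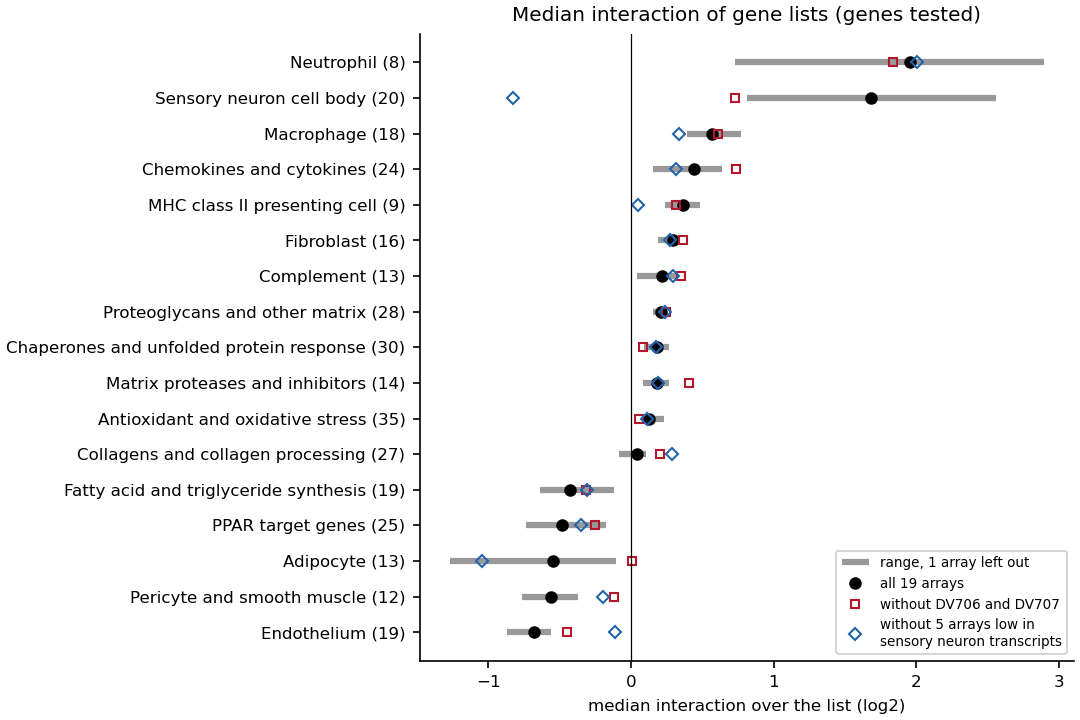
Median interaction of 17 gene lists (horizontal axis, log2; the number of tested genes in brackets) with all 19 arrays (black), as a range over fits with 1 array left out (grey), without DV706 and DV707 (red squares) and without the 5 neuron-poor arrays (blue diamonds). The macrophage, chemokine and fibroblast medians are positive at every point shown, the endothelial median is negative at every point shown, and the sensory neuron median changes sign.

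Of the other lists, several stood close to 0 and several did not. Farther from 0 were medians of 0.48 over 8 oligodendrocyte and astrocyte genes, 0.28 over 9 T and NK cell genes and 0.23 over 27 skeletal muscle genes. Those 3 turned negative with 1 array left out, at -0.13 without CR715, -0.28 without DV709 and -0.38 without DR716. The median was 0.19 over 7 satellite glia genes, 0.17 over 31 proteasome genes and -0.16 over 21 genes of fatty acid oxidation. Nearer to 0 were the following. The median interaction was -0.04 over 33 genes of respiratory complex I, 0.06 over 38 genes of the other complexes, 0.07 over 29 cytosolic ribosomal genes and 0.02 over 21 genes of glycolysis. It was -0.06 over 27 interferon response genes, -0.06 over 17 clock genes and 0.002 over 20 genes of the insulin and IGF axis. Myelinating Schwann cell transcripts had a larger median, 0.19 over 18 genes, which was -0.09 without CR715 and 0.36 without DR716. Mbp had -0.09 (SE 0.14, 95% interval -0.38 to 0.20). A median near 0 with these errors does not show that the drug acted alike in both states.

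The share of genes at an unadjusted interaction p under 0.05 depended on which arrays were in the fit. It was 2.20% without DV706 and DV707 and 6.97% without the 5 neuron-poor arrays. With 1 array left out it ran from 2.47% without DV706 to 13.7% without DV710. No array left out gave a gene past the adjusted threshold.

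**Figure D5:**
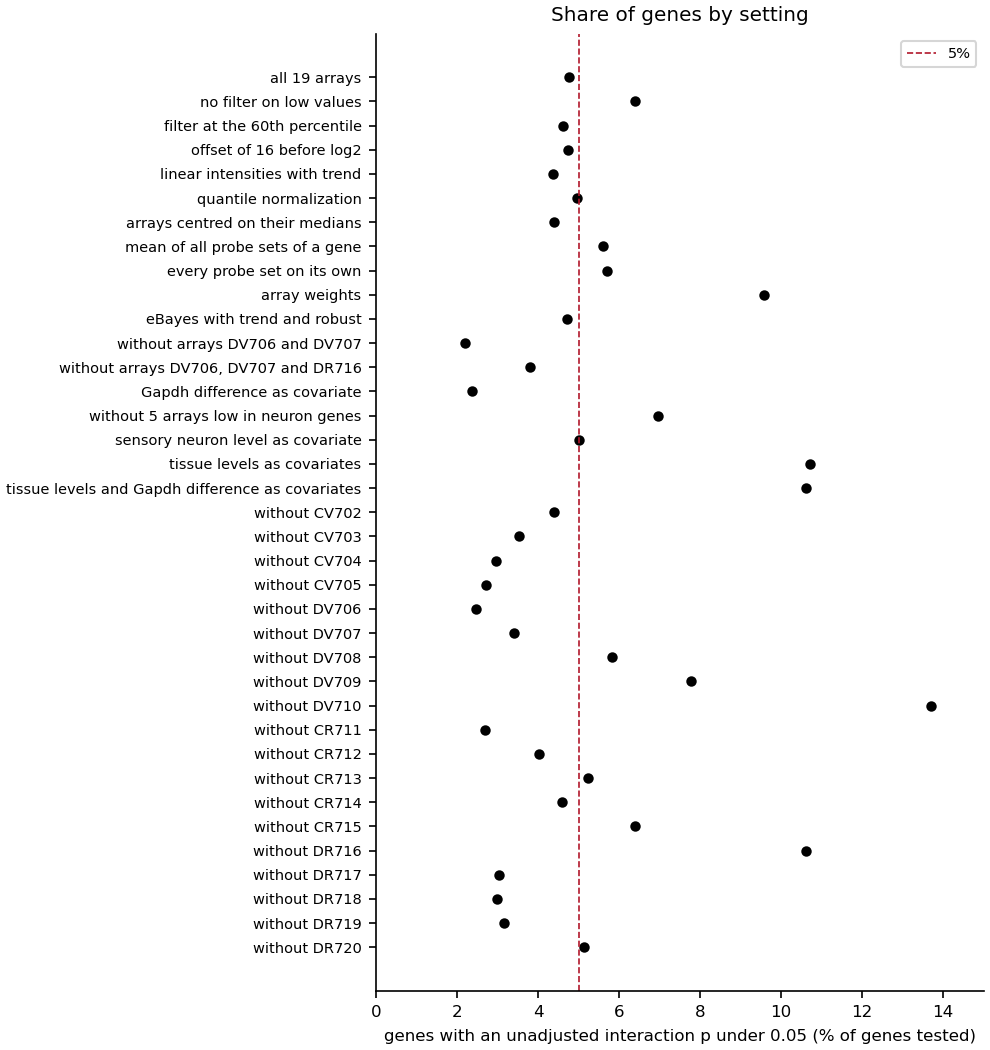
Percentage of tested genes with an unadjusted interaction p under 0.05 (horizontal axis) with all 19 arrays and under each alternative, with a dashed line at 5%. With all arrays the share is 4.77%; leaving out DV710 gives the highest, 13.7%, and leaving out both DV706 and DV707 the lowest, 2.20%.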

How the data were processed

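The authors deposited linear intensities, 1 for every probe set on every array, made with RMA per the submitters' processing notes; its version, software and settings are not given in the sources used here. RMA corrects background, normalizes by quantiles and summarizes probes. The array medians of the deposited intensities still ran from 83.3 to 101.7, and the 5 neuron-poor arrays were the lowest, at 83.3 to 88.05. The median interaction over all genes tested was -0.0168 as deposited, -0.0459 with quantile normalization and -0.112 with the arrays centred on their medians. Of 45037 probe sets that are not controls, 34945 had 1 gene symbol in the platform annotation, 932 several and 9160 none, and only the first were named. Intensities were log2-transformed without an offset. The brightest probe set, by mean over the 19 arrays, stood for its gene, and genes above a mean log2 intensity of 5.54, the 40th percentile, were tested. In R 4.3.3, limma 3.58.1 (lmFit, contrasts, eBayes) fitted 4 group means, with Benjamini-Hochberg adjustment over 13460 genes at 0.05, after the steps had been tested on simulated data. The p-values rest on the spread among arrays of 1 mouse each, taken as 1 estimate per gene that all 4 groups share. That spread includes the differences in RNA integrity and in other tissue, and it was not equal between arrays. The weights of the array-weighted fit ran from 0.195 in DV707 to 4.2 in CV704. The number of arrays limits the precision.

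Named are the 12 positive and 12 negative interactions with the smallest p, 8 genes in every case, and of each list described up to 3 members, those of smallest p; Ccl3, Ccl4, Ccl12, Ccl8 and Ccl1 were added after their values were seen. The comparison, its lists and its alternatives were chosen with earlier results of these data known, as were 17 lists to describe of 47. Lists are given by counts and medians, without a test.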

Additional observations from a re-analysis of the deposited data

Results flagged for a closer look

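Among 388 sets of 4 or 5 arrays of a group, over 80 genes and 17 list levels, 26 held an array farther from the others than Dixon's 95% limit, 6.70% where chance gives about 5%. All values are log2 intensities or list levels, and 8 were from DR716 and 5 from CR715.

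In diabetic rosiglitazone mice, DR716 was high for Pparg (10.63, the others 6.88 to 7.80), Cd36 (11.99, the others 10.55 to 10.87), Pdk4 (12.72, the others 12.11 to 12.28), Sapcd2 (6.93) and the collagen list (0.43, the others -0.21 to -0.15), and low for Scn11a (5.82), Calcb (4.87) and Uchl1 (11.22). DR720 was low for Srpx (8.99, the others 9.71 to 9.90), and DR719 was high for H2-Aa (13.64). In diabetic vehicle mice, DV709 was low for Fabp4 (9.64, the others 13.41 to 14.00) and for the adipocyte list (-3.58, the others -0.63 to 0.54) and high for Pias3 (10.35), and DV706 was high for Mbp (14.44).

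In control rosiglitazone mice, CR715 was low for Scn11a (5.48, the others 11.21 to 11.84), Calcb (5.33), Uchl1 (10.95), Mbp (13.83) and the sensory neuron list (-3.27, the others 0.86 to 1.51). CR711 was low for Pdia4 (7.55) and high for Cpt1a (10.38) and Zfp750 (5.89), and CR712 was low for Slf2 (7.89). In control vehicle mice, CV705 was high for Pdk4 (12.45) and for the chaperone list (0.64, the others 0.06 to 0.08), and CV702 was high for Alppl2 (5.81).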

How the results depend on the processing

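No gene passed the adjusted threshold for the interaction under any of the 36 alternatives; the smallest adjusted p in limma was 0.0635 (Steap3, 1.47) with adipocyte, muscle and neuron levels as covariates, a gene named after its value was seen, and 0.0799 with the Gapdh difference added. Genes past it for rosiglitazone in control mice were 20 with array weights and 2 with all 4 covariates. For diabetes under vehicle there was 1 with 3 covariates and 1 with 4, and 0 to 4 with 1 array left out, the 4 (Poc5, Ccl7, Srpx and Pole4) without DV710. Genes at an unadjusted interaction p under 0.05, 642 in all, numbered 1164 with no filter, 1540 over every probe set, 1290 with array weights, 296 without DV706 and DV707, 317 with the Gapdh covariate, 1434 with 3 covariates and 1421 with 4. With 1 array left out they ran from 332 to 1847, moving by over 1.5 times without DR716 (1428), DR717 (409), DR718 (403), DR719 (424), DV706 (332), DV709 (1046), DV710 (1847), CR711 (361), CV704 (400) and CV705 (366). The positive and negative calls were 275 and 889 with no filter, 861 and 679 over every probe set, and 367 and 346 with probe sets averaged.

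Signs turned for genes whose interaction was smaller than its SE or whose probe sets disagreed, and for the 3 sensory neuron genes. Without the 5 neuron-poor arrays, the interaction was -0.84 for Calcb, -0.81 for Scn11a, -0.29 for Uchl1, -1.06 for Cidec, -0.66 for Fabp4 and -0.18 for Ccl1. With 4 covariates it was -0.014 for Calcb, -0.069 for Uchl1 and -0.090 for Ccl1. Ccl1 was at -0.050 with 3 covariates, -0.068 with the neuron level and -0.0013 with the Gapdh difference, and Fabp4 at -0.072 with the neuron level. Averaging probe sets gave -0.28 for Cd36, -0.10 for Fabp4, 0.075 for Mbp and 0.24 for Rgs5. Centring arrays gave -0.020 for Cd36 and -0.0099 for Fabp4, array weights -0.085 for Cidec, and linear intensities -1025 for Cd36, -1515 for Fabp4 and -1960 for Cidec, in intensity units. With 1 array left out the ranges were -0.34 to 0.56 for Cd36, -0.74 to 0.74 for Fabp4 and -1.01 to 1.22 for Cidec. The causes were not tested. No paired analysis was possible because no replicate number is shared between groups.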
